A study of Mus musculus with 55 samples.

Results

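The genes of natural killer (NK) cells and cytotoxic T cells described here are Nkg7, Klrd1, Klrk1, Ncr1, Gzma, Gzmb, Prf1, Eomes, Tbx21 and Klrb1c, taken as every probe set whose array annotation carries the symbol of only 1 of them. The rule found 11 probe sets for 9 of the 10 genes, out of 18193 genes with such a probe set on the array. Klrb1c shares its probe set with a neighbouring gene and was not analysed here. Prf1 and Eomes had 2 probe sets each, and the probe set with the higher mean over all arrays stood for the gene. Lung RNA of 52 male C57BL/6 mice, 1 array per mouse, fell into 12 groups. The stated age of all mice was 6 weeks, and they were kept on their diet for 2 weeks before treatment. Treatment then lasted 8 hours or 5 weeks, so the age at collection can differ between groups.

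In the injection experiment, mice on the purified AIN-76A diet received 1 intraperitoneal injection and their lungs were taken after 8 hours. The groups were dexamethasone plus sodium arsenite (As; 1 mg/kg each, n = 5), dexamethasone alone (1 mg/kg, n = 5), As alone (1 mg/kg, n = 4) and the saline vehicle (n = 5). Dexamethasone is a synthetic glucocorticoid. In the chronic experiment, As was given for 5 weeks on the AIN-76A diet (AIN) or on the standard chow LRD-5001 (LRD). On AIN these groups were 10 ppb in food (n = 5), no added As (n = 5), 10 ppb in drinking water (n = 4) and 100 ppb in drinking water (n = 3), and on LRD the corresponding groups held 5, 4, 4 and 3 mice. Whole lungs hold many cell types, so that fewer cytotoxic lymphocytes and less RNA of these genes per cell cannot be told apart.

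NK cells and cytotoxic T cells kill infected or transformed cells by releasing granules. Receptors at the cell surface decide on release. Klrd1 encodes CD94, the partner of NKG2 receptors other than NKG2D. Klrk1 encodes the activating receptor NKG2D, and Ncr1 encodes the activating receptor NKp46. The granules hold perforin (Prf1), which opens pores in the target cell, and the serine proteases granzyme A (Gzma) and granzyme B (Gzmb), and Nkg7 encodes a membrane protein of these granules. Eomes and T-bet (Tbx21) are T-box transcription factors needed for the maturation of NK cells and for effector functions of cytotoxic T cells. Mouse lung is known as a tissue rich in NK cells, and glucocorticoids are known to dampen many functions of lymphocytes.

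Promoter sequences of 4 members are shown because these genes gave the calls or the widest differences after dexamethasone. They were taken from RefSeq (GRCm38.p6), run 5′ to 3′ on the strand of the gene and cover 250 bases before to 50 bases after the transcription start. Capitals mark 2 short motifs, each searched on both strands. The motif GTGTGA, or its reverse complement, is a half-site of T-box factors. The glucocorticoid receptor binds a half-site written AGAACA, which was searched in the same way. The windows are chr7:43436888-43437187 on the plus strand for Nkg7, chr14:56262285-56262584 on the minus strand for Gzmb, chr13:113100932-113101231 on the minus strand for Gzma and chr10:61297586-61297885 on the plus strand for Prf1.
Nkg7: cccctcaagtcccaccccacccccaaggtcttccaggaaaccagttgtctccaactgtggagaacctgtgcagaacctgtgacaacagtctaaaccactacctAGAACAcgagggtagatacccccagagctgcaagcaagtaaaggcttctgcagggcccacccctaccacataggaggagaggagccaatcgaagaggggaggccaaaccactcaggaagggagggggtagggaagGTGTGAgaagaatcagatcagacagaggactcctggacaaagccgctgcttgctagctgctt
Gzmb: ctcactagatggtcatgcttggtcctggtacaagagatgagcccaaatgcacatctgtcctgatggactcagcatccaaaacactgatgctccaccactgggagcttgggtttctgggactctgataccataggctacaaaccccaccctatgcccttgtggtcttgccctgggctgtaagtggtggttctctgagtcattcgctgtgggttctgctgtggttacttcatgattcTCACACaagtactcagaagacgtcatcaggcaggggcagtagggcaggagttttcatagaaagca
Gzma: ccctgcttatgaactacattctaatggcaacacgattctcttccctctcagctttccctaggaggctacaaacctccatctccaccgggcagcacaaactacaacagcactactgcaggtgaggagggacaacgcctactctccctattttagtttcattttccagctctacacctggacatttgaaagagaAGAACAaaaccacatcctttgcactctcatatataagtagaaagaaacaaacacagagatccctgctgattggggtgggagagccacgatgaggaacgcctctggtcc
Prf1: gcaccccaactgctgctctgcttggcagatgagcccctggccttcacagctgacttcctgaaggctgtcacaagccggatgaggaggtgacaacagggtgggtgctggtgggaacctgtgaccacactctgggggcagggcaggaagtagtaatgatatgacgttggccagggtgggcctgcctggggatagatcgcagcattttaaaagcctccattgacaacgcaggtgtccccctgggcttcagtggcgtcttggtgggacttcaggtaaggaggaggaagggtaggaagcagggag
Of the 8 member genes with a promoter entry, 3 (Nkg7, Gzmb and Ncr1) held the T-box half-site, which 14.5% of all 32851 promoter windows hold. The glucocorticoid receptor half-site was found for 2 of them (Nkg7 and Gzma), against 19% of all windows. Counted from the transcription start, the T-box half-site of Nkg7 began at -12 and its receptor half-site at -147, and the 2 did not overlap. The T-box half-site of Gzmb began at -15 and the receptor half-site of Gzma at -58. Klrd1 had no entry. These matches describe letters in a window only.

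All values are log2 intensities after RMA, a method that corrects background, brings the arrays to 1 scale and summarizes the probes of a probe set, so that a difference of 1 is a factor of 2. The arrays differed little in their medians (4.25 to 4.37), and 3 further arrays with a compressed or shifted distribution were set aside. Tissue other than lung was measured on single arrays: the thymocyte list averaged 8.09 in saline mouse E, against 4.39 to 4.59 in the other 4 saline mice, and 9.77 in mouse E of the AIN 10 ppb drinking water group. Surfactant genes of alveolar type II cells were bright on every array (the list averaged 12.0 to 13.03). The arrays carry 5 batch codes in their names, and each injection group was spread over at least 3 of them.

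After dexamethasone all 9 genes had their lowest group means of the study. For each of the 9, the means of the dexamethasone group and the dexamethasone plus As group were the 2 lowest of the 12 group means. Of the 10 arrays with the lowest mean over the 9 genes, 9 came from the 10 mice given dexamethasone, and the remaining one was mouse C of the AIN group on 100 ppb As in drinking water. A gene was called where its adjusted p, from limma with Benjamini-Hochberg adjustment over all 45037 probe sets, was under 0.05.

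**Figure D1:**
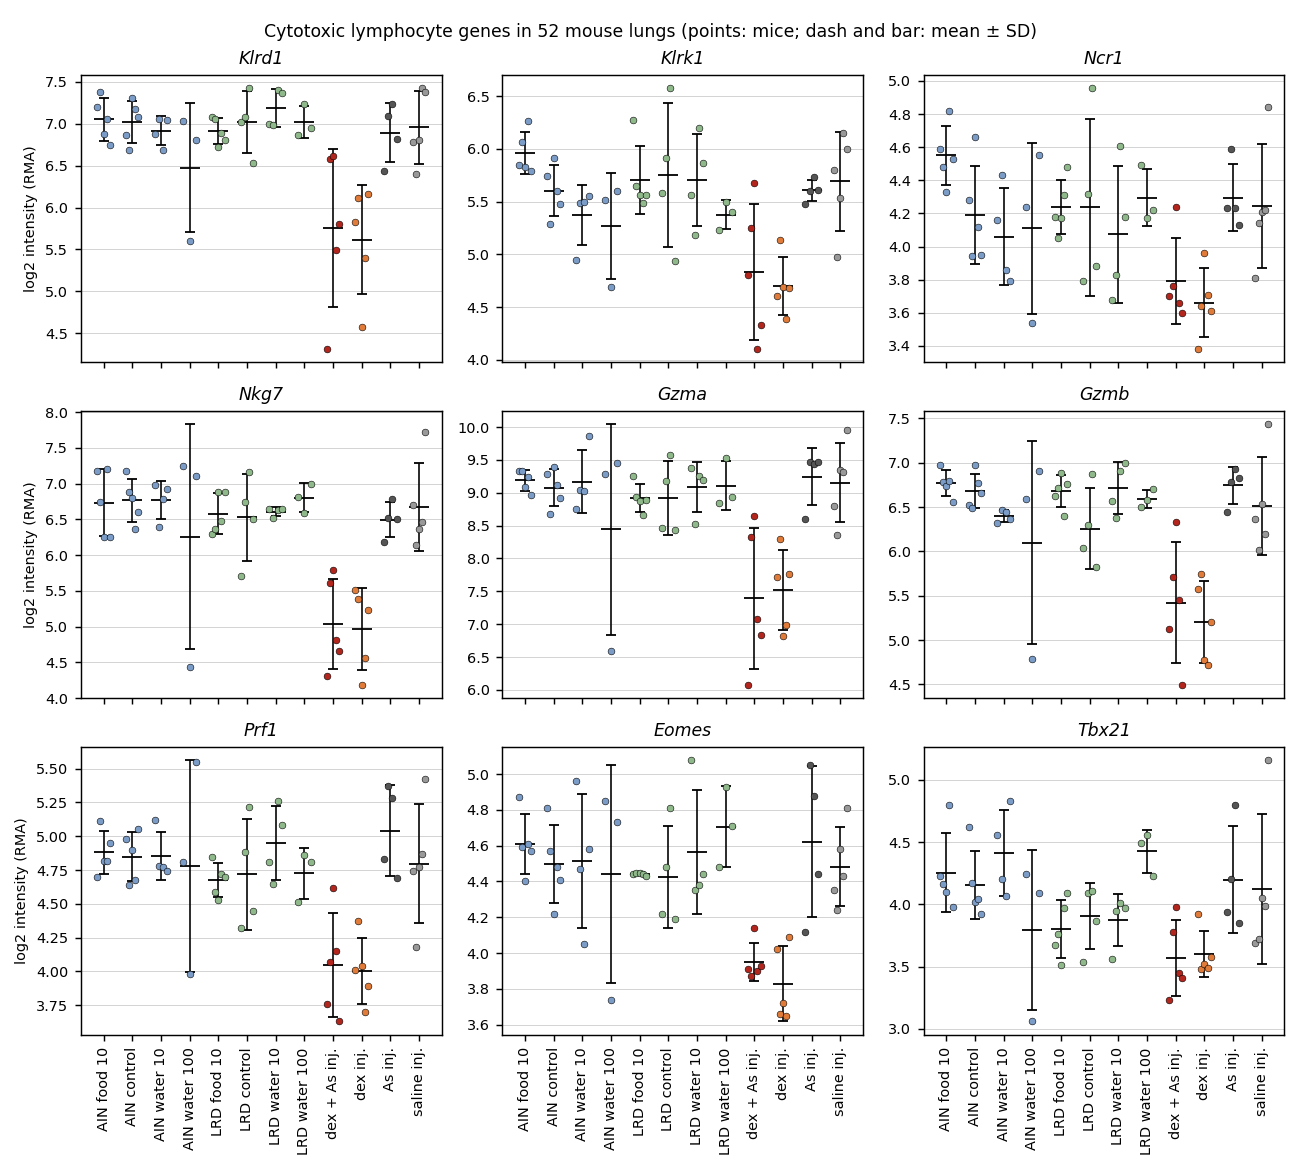
Log2 intensity of the 9 genes in 52 mice by group (AIN and LRD: diets; food and water: added As in ppb; dex: dexamethasone; As: sodium arsenite; inj.: injection). Points are mice and the dash and bar give the mean ± SD. The 2 groups given dexamethasone have the lowest means in every panel, and 1 mouse on 100 ppb As in drinking water (AIN) lies as low in most of them.

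Among the receptors, Klrd1 (CD94) had 5.83, 6.11, 4.58, 5.40 and 6.16 in dexamethasone mice, against 6.78, 6.40, 6.80, 7.42 and 7.38 in saline mice. These groups did not overlap. In dexamethasone plus As mice Klrd1 had 4.31, 6.58, 6.61, 5.49 and 5.80, against 6.43, 7.09, 7.23 and 6.82 in As mice, and mice C and D of the first group lay within the range of the second. Klrd1 averaged 5.62 ± 0.65 after dexamethasone and 6.96 ± 0.44 after saline (SD, n = 5 each), a log2 difference of -1.34 (95% CI -2.12 to -0.56), which did not pass the limma test (adjusted p = 0.127; exact two-sided permutation p = 0.00794, the smallest that 5 against 5 mice allow).

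Klrk1 (NKG2D) ranged between 4.39 and 5.14 in dexamethasone mice, against 4.97 to 6.15 in saline mice. The log2 difference was -0.99 ± 0.25 (SE, limma adjusted p = 0.0883, exact permutation p = 0.0159). Ncr1 (NKp46), a marker largely restricted to NK cells, ranged between 3.38 and 3.96 in dexamethasone mice, against 3.81 to 4.84 in saline mice, with a log2 difference of -0.58 ± 0.16 (SE, limma adjusted p = 0.127, exact permutation p = 0.0159). Both genes overlapped between the groups by 1 mouse on either side. Ncr1 was dim throughout, with no array above a log2 intensity of 5.

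Of the granule genes, Nkg7 fell furthest among the called members. It had 5.51, 5.38, 4.18, 4.56 and 5.23 in dexamethasone mice and 4.31, 5.61, 5.79, 4.82 and 4.66 in dexamethasone plus As mice. In As mice it had 6.18, 6.52, 6.78 and 6.50, and in saline mice 6.70, 6.14, 6.36, 6.46 and 7.72. Every mouse given dexamethasone lay below every mouse of the other 2 groups. Nkg7 averaged 4.97 ± 0.58 after dexamethasone and 6.68 ± 0.62 after saline (SD, n = 5 each), which is 3.26-fold lower (log2 difference -1.70 ± 0.32 SE, limma adjusted p = 0.0214). With As added, the mean of 5.04 ± 0.63 was 3.12-fold below that of saline mice (limma adjusted p = 0.02), and 2.75-fold below the 6.50 ± 0.25 of As mice, where the test was narrowly missed (limma adjusted p = 0.0533, exact permutation p = 0.0159).

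Gzmb (granzyme B) had 5.58, 5.74, 4.78, 4.72 and 5.20 in dexamethasone mice, against 6.37, 6.02, 6.54, 6.20 and 7.44 in saline mice. The groups did not overlap, and the mean was 2.48-fold lower after dexamethasone (log2 difference -1.31 ± 0.30 SE, limma adjusted p = 0.0492). In dexamethasone plus As mice Gzmb had 5.13, 5.71, 6.33, 5.45 and 4.49, against 6.45, 6.78, 6.93 and 6.83 in As mice, again with no overlap, and the log2 difference of -1.33 ± 0.32 (SE) missed the threshold (limma adjusted p = 0.0598, exact permutation p = 0.0159).

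Gzma (granzyme A) showed the widest difference in the presence of As. It had 6.07, 8.33, 8.65, 7.08 and 6.84 in dexamethasone plus As mice, against 8.60, 9.47, 9.44 and 9.47 in As mice. Only mouse D of the first group (8.65) lay above the lowest mouse of the second. The log2 difference was -1.85 (95% CI -2.77 to -0.92), or 3.6-fold, and was not called (limma adjusted p = 0.0617, exact permutation p = 0.0317). In the absence of As, Gzma had 7.72, 8.30, 6.82, 6.99 and 7.76 in dexamethasone mice, against 8.80, 8.36, 9.34, 9.32 and 9.95 in saline mice, with no overlap and a log2 difference of -1.63 ± 0.42 (SE, limma adjusted p = 0.087).

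Prf1 (perforin) had 3.76, 4.07, 4.62, 4.15 and 3.63 in dexamethasone plus As mice, against 4.83, 5.37, 5.28 and 4.69 in As mice. The groups did not overlap, and Prf1 was called in this comparison (log2 difference -1.0 ± 0.22 SE, 2-fold lower, limma adjusted p = 0.0457). The call was lost with the batch code as a block (log2 difference -0.92, limma adjusted p = 0.076) and when any 1 mouse other than mouse D of dexamethasone plus As was left out (limma adjusted p between 0.0627 and 0.193). Between dexamethasone mice (3.70 to 4.37) and saline mice (4.18 to 5.42) the log2 difference was -0.79 ± 0.21 (SE, limma adjusted p = 0.104). The other, dimmer probe set of Prf1 did not show this difference: it averaged 4.57 ± 0.13 after dexamethasone and 4.50 ± 0.22 after saline (SD, n = 5 each), a log2 difference of 0.07 (95% CI -0.24 to 0.38). In the comparison with the call, this other probe set averaged 4.43 ± 0.31 (dexamethasone plus As, n = 5) and 4.52 ± 0.28 (As, n = 4). The probe set that stood for Prf1 was dim as well, with 10 of 52 arrays above a log2 intensity of 5.

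Of the T-box factors, Eomes had 4.02, 3.66, 3.72, 3.65 and 4.09 in dexamethasone mice and 3.91, 3.87, 4.14, 3.90 and 3.93 in dexamethasone plus As mice. In saline mice it had 4.35, 4.24, 4.58, 4.43 and 4.81, above every mouse of both dexamethasone groups. The log2 difference was -0.65 ± 0.15 (SE) for dexamethasone against saline, just short of the threshold (limma adjusted p = 0.0555, exact permutation p = 0.00794). The other probe set of Eomes had a log2 difference of -0.25 ± 0.11 (SE, limma adjusted p = 0.511) in the same comparison. Tbx21 had the smallest difference of the 9 for dexamethasone against saline, with 3.48 to 3.92 in dexamethasone mice against 3.69 to 5.16 in saline mice (log2 difference -0.52 ± 0.24 SE, limma adjusted p = 0.506, exact permutation p = 0.0397). Without saline mouse F (5.16), its log2 difference was -0.26 (limma adjusted p = 0.884).

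Over the 9 genes, dexamethasone against saline gave 2 called as lower (Nkg7 and Gzmb), against 0.357% of all 45037 probe sets. All 9 had an unadjusted limma p under 0.05 and a lower mean, against 5.01% of all probe sets, and 5 (Nkg7, Klrd1, Gzma, Gzmb and Eomes) did not overlap between the groups, against 1.25%. The rank product, written anew here after a test that the study's methods name for other contrasts, called 7 as lower, against 1.39%. The median log2 difference of the 9 genes was -0.99, beside 0.004 over all probe sets. The count of called genes was 0 without saline mouse F or without dexamethasone mouse E, 4 without saline mouse C and 1 (Nkg7) without any other single mouse of these groups.

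For dexamethasone plus As against saline, 1 of the 9 was called (Nkg7), against 0.313% of all probe sets, all 9 were lower at an unadjusted limma p under 0.05, against 4.7%, and 2 (Nkg7 and Eomes) did not overlap, against 0.999%. The rank product called 6, against 1.34% of all probe sets. For dexamethasone plus As against As, 1 was called (Prf1), against 0.302%, all 9 were lower at an unadjusted limma p under 0.05, against 5.61%, and 3 (Nkg7, Gzmb and Prf1) did not overlap, against 2.4%. The rank product again called 6, against 1.34%. The count against saline was 0 without saline mouse F or without mouse E or F of dexamethasone plus As, 3 without saline mouse C and 4 without mouse D. The count against As was 4 without mouse D and 0 without any other single mouse except mouse A of As. These 3 comparisons share groups and are not independent of each other.

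**Figure D2:**
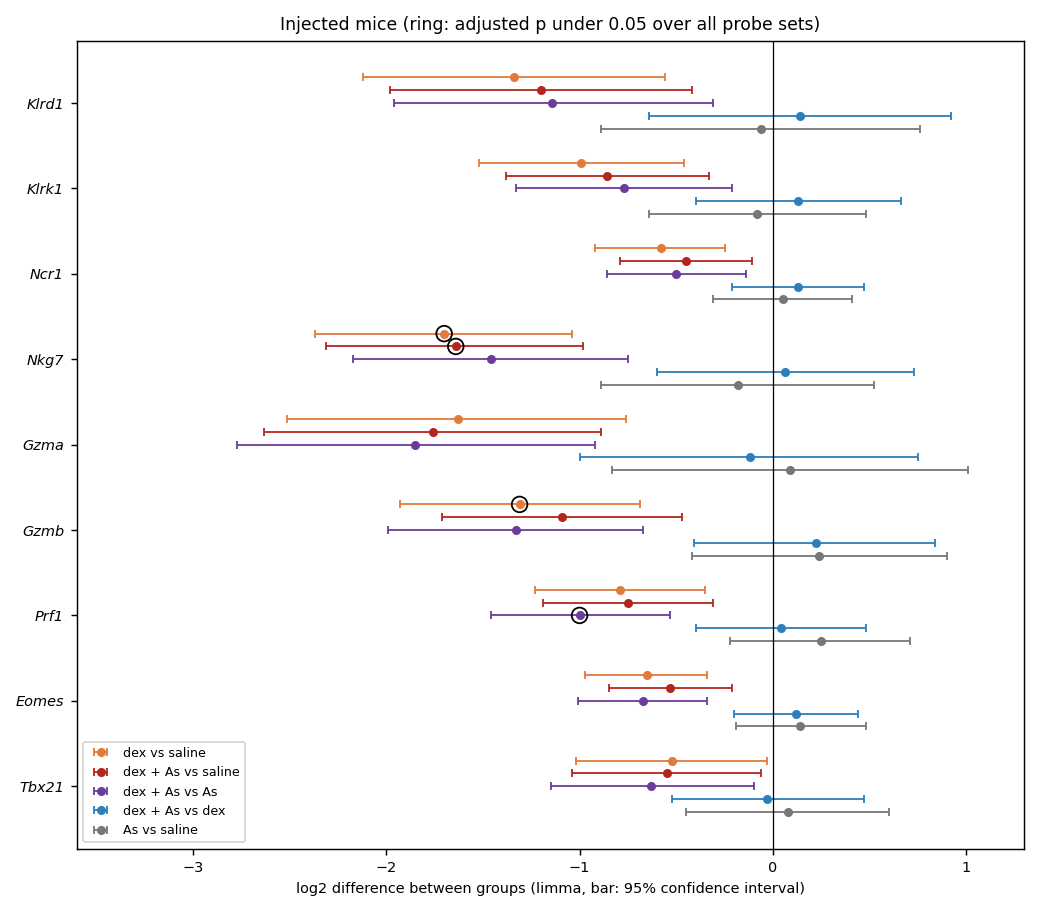
Log2 difference of each gene between injected groups (x axis) with its 95% confidence interval from limma (dex: dexamethasone; As: sodium arsenite). Rings mark an adjusted p under 0.05 over all probe sets. The 3 comparisons with dexamethasone on one side only lie below 0 for all 9 genes (-0.45 to -1.85), and the intervals of the other 2 all cross 0.

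When both dexamethasone groups were set against both groups without it, a contrast chosen after the data were seen, 8 of the 9 genes were called as lower, against 2.04% of all probe sets. All 9 were lower at an unadjusted limma p under 0.05, against 7.15%. Gzma had a log2 difference of -1.74 ± 0.30 (SE, limma adjusted p = 0.00246), Nkg7 of -1.58 ± 0.23 (limma adjusted p = 0.000628), Gzmb of -1.32 ± 0.22 (limma adjusted p = 0.00155) and Klrd1 of -1.24 ± 0.27 (limma adjusted p = 0.0133). Tbx21, the gene not called, had -0.57 ± 0.17 (limma adjusted p = 0.0806), and it was called with 1 fit over all 12 groups and with the batch code as a block. Each of the 8 calls held when any 1 mouse was left out.

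As alone did not move these genes detectably. Against saline, limma called 0 of the 9 and 0% of all probe sets, and none had an unadjusted p under 0.05, against 6.72% of all probe sets. The log2 differences lay between -0.18 and 0.25. The interval of Nkg7 ran from -0.89 to 0.52 and that of Gzma from -0.83 to 1.01, so that changes of up to about a doubling of Gzma were within the error. Adding As to dexamethasone also gave 0 called among the 9 and 0% of all probe sets, with none of the 9 at an unadjusted p under 0.05, against 2.28%, and log2 differences between -0.12 and 0.22. The dexamethasone by As interaction was called for 0 of the 9 and 0% of all probe sets (none of the 9 at an unadjusted p under 0.05, against 3.79%). For Nkg7 the interaction was 0.24 with a 95% CI of -0.72 to 1.21.

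Within batch codes the direction was kept with few exceptions. In the 3 codes that held both a dexamethasone and a saline array, all 9 genes were lower after dexamethasone in each, Nkg7 by -0.85 to -3.55 and Gzma by -1.02 to -3.13. In the 4 codes with both a dexamethasone plus As and a saline array, Gzmb (0.13) and Ncr1 (0.02) were not lower in 1 code, where Tbx21 had a difference of 0 after rounding, and in the 3 codes with dexamethasone plus As and As arrays, Klrk1 (0.01) and Ncr1 (0.06) were not lower in 1 code. The array in that code was mouse D of the dexamethasone plus As group, the highest of its group in all 9 genes. With the batch code as a block, 6 of the 9 genes were called for dexamethasone against saline and 4 for dexamethasone plus As against saline. For dexamethasone plus As against As, 0 were called. The share of all probe sets called with this block is not given here.

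Genes related to the functions of NK cells and cytotoxic T cells were examined in 7 lists, with 100 measured genes besides the members. The lists covered receptors, granule contents, cytokines and their receptors, transcription factors, secreted products, homing receptors and ligands of NK receptors. They were not restricted to genes expressed by NK cells and cytotoxic T cells. For dexamethasone against saline, 4 of the 100 fell and 0 rose. Ctsw, a cathepsin of cytotoxic cells, averaged 4.87 ± 0.36 in dexamethasone mice and 6.05 ± 0.42 in saline mice (SD, n = 5 each; limma adjusted p = 0.00725). Il2rb, the shared beta chain of the receptors for interleukin-2 and interleukin-15, averaged 4.18 ± 0.30 and 5.15 ± 0.54 in the same groups (limma adjusted p = 0.0336). Ccl5, a chemokine stored by effector lymphocytes, was 2.93-fold lower (limma adjusted p = 0.029), and Itgal, the alpha chain of the adhesion molecule LFA-1, 2.68-fold lower (limma adjusted p = 0.00831).

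Of the 100, 5 fell and 0 rose with dexamethasone plus As, both against saline and against As, and in the pooled contrast 23 fell and 0 rose. Of the 22 measured receptors and adaptors, 10 fell in the pooled contrast, with a median log2 difference of -0.49. Among them were the lectin-like receptors Klra17 (-1.57 ± 0.33 SE, limma adjusted p = 0.00994) and Klra8 (-1.51 ± 0.26; limma adjusted p = 0.00253), and the signalling adaptor Tyrobp (-0.96 ± 0.19; limma adjusted p = 0.0057). Of the 12 homing receptors 6 fell, with Ccr2 (-1.48 ± 0.32; limma adjusted p = 0.0119) among them, and of the 17 genes of cytokines and their receptors 4 fell, with Stat4 (-1.07 ± 0.18; limma adjusted p = 0.00171) among them. None of the 13 other transcription factors and none of the 12 ligands were called in the pooled contrast (limma). Several of these genes, such as Klra17, Tyrobp, Itgal and Ccr2, are also expressed by myeloid cells. Klra17 stood apart from the members in As mice, with a log2 difference of 1.3 against saline (limma adjusted p = 0.655). The members lay between -0.18 and 0.25 there. Against saline, Klra17 had -0.98 with dexamethasone and -0.85 with dexamethasone plus As.

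Markers of other leukocytes were set beside the members. The 12 T cell markers averaged 4.48 to 4.74 in dexamethasone plus As mice, 4.54 to 4.80 in dexamethasone mice, 4.87 to 5.21 in As mice and 4.79 to 7.38 in saline mice, the last value being saline mouse E. Their median log2 difference for dexamethasone against saline was -0.84 with 0 of 12 called, and that of the 7 B cell markers -0.82 with 0 of 7 called. Without saline mouse E, left out after the data were seen, these medians were -0.29 for the T cell and -0.44 for the B cell markers, while that of the 9 cytotoxic lymphocyte genes was -0.87 (-0.99 with mouse E). For dexamethasone plus As against saline, also without mouse E, they were -0.35, -0.66 and -0.74. The B cell markers averaged 4.75 in dexamethasone plus As mice and 5.76 in As mice. In the same groups the 9 genes averaged 4.87 and 5.90, and the T cell markers 4.59 and 5.04. In the pooled contrast 1 of the 12 T cell markers (Cd3d) and 3 of the 7 B cell markers fell. Neutrophil markers had a median log2 difference of -0.72 with 0 of 7 called, and 2 (S100a8 and S100a9) fell in the pooled contrast, whereas Ngp (0.45) and Camp (0.27) had values above 0 for dexamethasone against saline. The 5 macrophage markers had a median of -0.08 with 0 called (Csf1r fell in the pooled contrast), and the 5 alveolar type II markers a median of 0.07 with 0 called. The part of these other cell types in the result was not tested. Of 10 genes known as glucocorticoid targets, none was called for dexamethasone against saline, with a median log2 difference of -0.05. The mean of these genes was 9.45 to 10.2 in dexamethasone mice and 9.38 to 10.46 in saline mice. The group mean was 9.77 after dexamethasone and 9.84 after saline, but 10.0 after dexamethasone plus As and 9.22 after As. In uninjected AIN control mice it was 9.24.

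**Figure D3:**
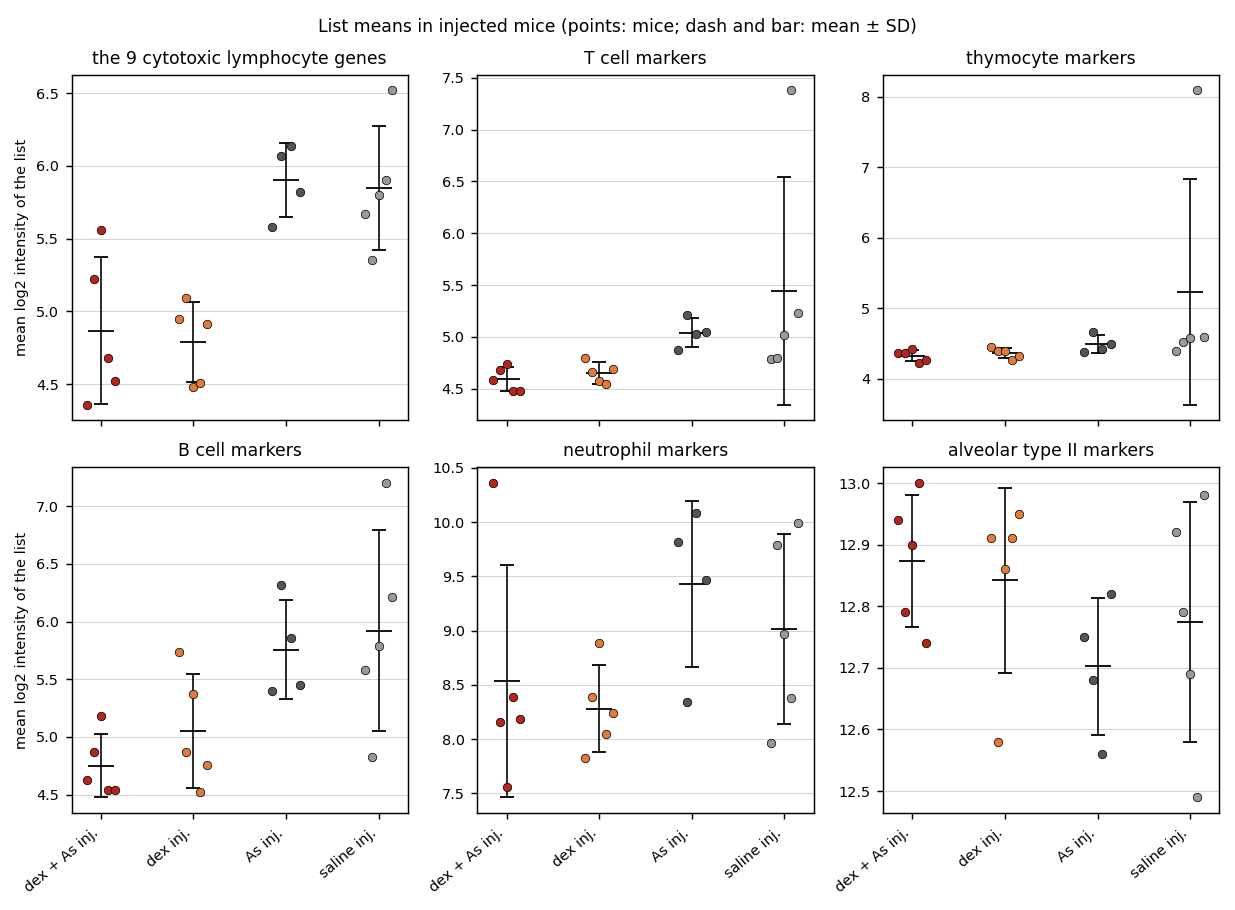
Mean log2 intensity of gene lists (y axis) in the 4 injected groups (dex: dexamethasone; As: sodium arsenite). Points are mice and the dash and bar give the mean ± SD. The 9 cytotoxic lymphocyte genes have lower means in both dexamethasone groups (4.87 and 4.79, against 5.85 in saline mice), the alveolar type II markers stay between 12.49 and 13.0 in all 4, and saline mouse E stands apart in the T cell and thymocyte markers.

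Chronic As in food or drinking water was not followed by a called change of any of these genes. Nkg7 averaged 6.73 ± 0.47 on AIN with 10 ppb in food (SD, n = 5), and along the drinking water series on AIN 6.77 ± 0.31 with no added As, 6.77 ± 0.26 at 10 ppb and 6.26 ± 1.57 at 100 ppb (n = 5, 4 and 3). On LRD it averaged 6.58 ± 0.28 with 10 ppb in food (n = 5), and 6.53 ± 0.61, 6.61 ± 0.06 and 6.80 ± 0.21 at 0, 10 and 100 ppb in drinking water (n = 4, 4 and 3). No exposed group differed from its control beyond the spread, and all 8 means lay above those of both dexamethasone groups.

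On AIN, 10 ppb in food gave 0 called among the 9 genes and 0% of all probe sets by limma, with 0 of the 9 at an unadjusted p under 0.05, against 1.89%. Klrk1 was the member nearest to a difference, at 5.96 ± 0.20 with As in food and 5.60 ± 0.24 without (SD, n = 5 each; limma adjusted p = 1, exact permutation p = 0.0476). With 10 ppb in drinking water the counts were again 0 called and 0% of all probe sets, and 0 at an unadjusted p under 0.05, against 9.79%. Gzmb had 6.32, 6.47, 6.44 and 6.37 in these mice, against 6.52, 6.49, 6.97, 6.77 and 6.66 in AIN control mice. The groups did not overlap. The log2 difference was small, at -0.28 ± 0.29 (SE, limma adjusted p = 0.761). The exact permutation p was 0.0159, the smallest that 4 against 5 mice allow. The SE draws on the spread of all chronic AIN groups. For Gzmb the SD was 0.07 at 10 ppb in drinking water and 0.2 in control mice, but 1.14 at 100 ppb. Mouse A of these mice averaged 10.09 for skeletal muscle and 9.5 for fat markers (4.03 to 7.90 and 4.30 to 5.66 in AIN control mice). Mouse E held the thymocyte signal named above.

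At 100 ppb in drinking water on AIN, 1 of the 3 mice stood apart. Mouse C had 4.44 for Nkg7, where the other 16 AIN mice of the chronic experiment ranged between 6.26 and 7.24, and it had 6.59 for Gzma, where they ranged between 8.68 and 9.86. It lay below all 16 in each of the 9 genes. The same mouse had the lowest B cell marker mean of the chronic AIN mice (4.66) and a high neutrophil marker mean (11.40, against 8.46 and 9.01 in mice A and D), and its glucocorticoid target genes averaged 10.31, against 8.80 and 9.43 in mice A and D. The part of these in its low values was not tested. All 9 genes had log2 differences below 0 in this comparison (-0.63 to -0.06), and 0 were called, with 0% of all probe sets called. Klrd1 alone had an unadjusted limma p under 0.05 (0.044), against 1.83% of all probe sets. Mouse B of the same group, whose array was set aside, also had a low mean over the 9 genes (4.45, against 4.49 in mouse C, 5.98 and 6.09 in mice A and D, and 5.70 to 6.03 in AIN control mice). Its array was compressed, with an SD over probe sets of 1.89, against 2.29 to 2.42 on the 52 arrays used. Endothelial markers averaged 8.85 on it, against 10.28 to 10.56 in AIN control mice. On the same array the neutrophil markers averaged 11.21, the glucocorticoid target genes 10.02 and the B cell markers 4.87, near the values of mouse C. The part of array quality and of these markers in the low mean of mouse B was not tested. Without mouse C, the difference from the AIN control mice was 0.40 for Nkg7, 0.29 for Gzma and -0.10 for Klrd1.

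**Figure D4:**
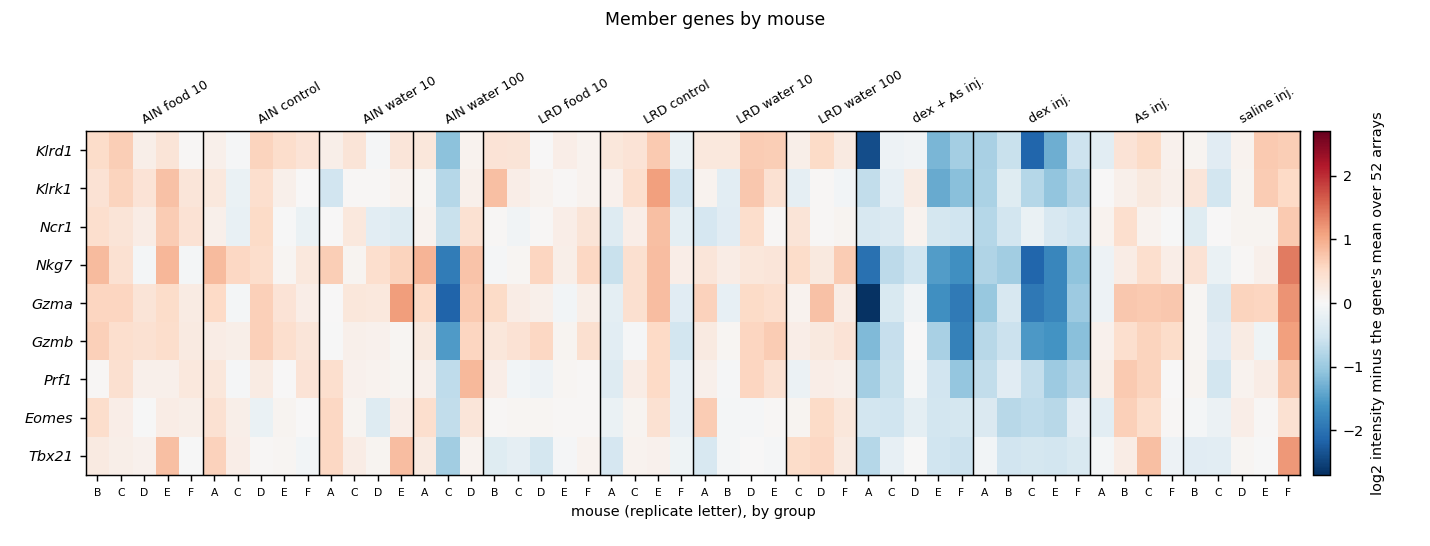
Log2 intensity of each gene (rows) minus its mean over 52 arrays, by mouse (columns, replicate letters) and group (dex: dexamethasone; As: sodium arsenite; numbers are ppb As). Blue marks low values: they fill the 2 dexamethasone groups except mouse D of dexamethasone plus As, and they mark mouse C of the AIN group on 100 ppb, which had 4.44 for Nkg7.

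On LRD, limma called 0 of the 9 genes and 0% of all probe sets at each exposure. At an unadjusted p under 0.05 there was 1 gene for food (Gzmb, against 2.62% of all probe sets), 1 for 10 ppb in drinking water (Gzmb, against 3.68%) and 1 for 100 ppb in drinking water (Tbx21, against 3.54%), and all 3 were higher. Gzmb averaged 6.68 ± 0.18 with As in food (n = 5) and 6.26 ± 0.45 in LRD control mice (SD, n = 4), a log2 difference of 0.42 ± 0.18 (SE, limma adjusted p = 1, exact permutation p = 0.127). At 10 ppb in drinking water it averaged 6.71 ± 0.29 (SD, n = 4), a log2 difference of 0.45 ± 0.19 (SE, limma adjusted p = 0.998, exact permutation p = 0.114). Tbx21 had 4.49, 4.56 and 4.23 at 100 ppb, against 3.54, 4.09, 4.11 and 3.87 in LRD control mice. The exact permutation p was 0.0571, the smallest that 3 against 4 mice allow (limma adjusted p = 1).

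The exposures were also compared between the diets. The diet by food interaction was called for 0 of the 9 genes and 0% of all probe sets (0 of the 9 at an unadjusted limma p under 0.05, against 2.04%), and the diet by 10 ppb drinking water interaction likewise for 0 and 0% (0 of the 9 unadjusted, against 11.8%). For the diet by 100 ppb drinking water interaction, 0 of the 9 and 0% of all probe sets were called, and Gzmb and Tbx21 had an unadjusted limma p under 0.05, against 2.47%. The difference was 0.92 (95% CI 0.01 to 1.83) for Gzmb and 0.89 (95% CI 0.16 to 1.61) for Tbx21, LRD minus AIN, and both include mouse C.

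The diet itself made little difference. LRD against AIN, as the mean of the 4 matched differences, gave 0 called among the 9 genes, against 0.153% of all probe sets, and 0 of the 9 at an unadjusted limma p under 0.05, against 4.25%. The log2 differences lay between -0.16 (Tbx21) and 0.17 (Klrd1), and their 95% confidence intervals between -0.40 and 0.49. The rank product called Tbx21 as lower on LRD, against 1.16% of all probe sets. Saline injection against uninjected AIN control mice gave 0 called among the 9, against 0.00222% of all probe sets. At an unadjusted limma p under 0.05 there were 0, against 4.09%, with log2 differences between -0.17 and 0.08. This comparison crosses the experiments, so injection and age at collection cannot be told apart in it. The rank product called none of the 9 in the 9 comparisons other than LRD against AIN and the 3 that set dexamethasone against its absence. It called between 9 and 315 of all 45037 probe sets in those 9 comparisons.

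The 9 genes varied together from mouse to mouse. Over the 52 arrays the correlation between members had a median r of 0.761 over the 36 pairs (0.493 to 0.923), and after subtraction of the group means a median of 0.601 (0.287 to 0.852). Over the 42 arrays without dexamethasone the median was 0.602. These are descriptions, since the arrays share diets, batches and tissue composition. Outside the members, the 10 genes with the pattern most like the mean of the 9 were Treml4, Adgre4, Itga4, Ms4a4b, H2-Ab1, Klra8, Gbp6, Gbp3, Psmb8 and H2-Aa (r = 0.901 to 0.863 over 52 arrays). Their correlation within groups was 0.70 to 0.76. Only Klra8, an NK receptor of the Ly49 family, was in the lists of genes related to NK cells. H2-Ab1 and H2-Aa encode the chains of an MHC class II molecule, Psmb8 a subunit of the immunoproteasome and Itga4 an integrin chain of leukocytes.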

How the data were processed

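RNA of frozen mouse lungs was labelled by the authors and hybridised to Affymetrix Mouse Genome 430 2.0 arrays, 1 array per mouse, and the authors deposited log2 values after RMA (named in the submitters' processing notes; the version is not given in the sources used here). The array's own control probe sets (64 of 45101) were dropped, which left 45037 for the tests, and 34945 carried 1 gene symbol in the platform annotation. Symbols were matched by Entrez ID for 34741 of these, and 0 changed.

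Of 55 arrays, 3 with a compressed or shifted distribution were set aside. Groups were fitted with limma 3.58.1 (R 4.3.3; lmFit, eBayes) in 3 fits, chronic AIN, chronic LRD and injections, and in 1 fit of all groups for diet, saline and diet interactions. Exact two-sided permutation tests were run per gene for 13 comparisons (117 values, not adjusted). The rank product was written in Python 3.11.15 (numpy 2.4.6, scipy 1.17.1) with 20 permutations. The scripts were tested on simulated data. The members and lists were chosen with earlier results of these data known. The genes named are all members, up to 4 called genes per list, and the 10 genes with the highest r. Alternatives covered the fit, a filter (log2 above 5 in at least 4 arrays, passed by 6 of the 9 genes and not by Ncr1, Eomes and Tbx21), batch and replicate blocks, array weights, normalization, the 3 arrays, averaging of probe sets, and leaving out each mouse. Batches are codes in the array names. Members of gene families such as granzymes can share probes, and their separation was not tested. The number of arrays limits the precision.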

Additional observations from a re-analysis of the deposited data

Results flagged for a closer look

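Among 90 combinations of gene and group with 4 or 5 mice, 11 held a single mouse far from the others by Dixon's test, where chance flags about 1 in 20. Mouse D of dexamethasone plus As had 4.24 for Ncr1 (3.60 to 3.76 in the other 4) and 4.14 for Eomes (3.87 to 3.93), above its group. Mouse A of dexamethasone had 3.92 for Tbx21 (others 3.48 to 3.58), mouse A of As 8.60 for Gzma (others 9.44 to 9.47) and saline mouse F 5.16 for Tbx21 (others 3.69 to 4.05). In the chronic groups, mouse A of AIN 10 ppb drinking water had 4.95 for Klrk1 (others 5.49 to 5.55) and 5.12 for Prf1 (others 4.74 to 4.78), and mouse B of LRD 10 ppb food had 6.27 for Klrk1 (others 5.49 to 5.65). In LRD 10 ppb drinking water, mouse B had 6.52 for Nkg7 (others 6.63 to 6.65), and mouse A had 5.08 for Eomes (others 4.35 to 4.44) and 3.56 for Tbx21 (others 3.95 to 4.01).

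For Gzmb at 10 ppb in drinking water, every AIN mouse lay below the mean of its control mice (mean difference -0.28) and every LRD mouse above it (0.45). The gap of -0.73, AIN minus LRD, was not called as an interaction by limma (adjusted p = 0.475).

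In the arrays set aside, some members lay above every control mouse. In mouse C of LRD 10 ppb drinking water, Eomes was 5.52 (LRD controls 4.19 to 4.81) and Tbx21 4.12 (LRD controls 3.54 to 4.11). The same array had a thymocyte marker mean of 8.08 (LRD controls 4.57 to 4.79) and a T cell marker mean of 8.07 (LRD controls 5.11 to 5.45). In mouse E of As injection, Prf1 was 5.67 (saline 4.18 to 5.42) and Tbx21 5.52 (saline 3.69 to 5.16). That array was flattened, with an SD over probe sets of 1.17 (2.29 to 2.42 on the 52 arrays used) and an alveolar type II marker mean of 5.5 (12.49 to 12.98 in saline mice), so that dim genes read high and bright genes low on it.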

How the results depend on the processing

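The direction of the 9 genes in the 3 dexamethasone comparisons never turned under the alternatives tried, but the number called moved. The shares of all probe sets called under the alternative limma fits are not given here, so these counts do not rank the settings. For dexamethasone against saline (2 called), 1 fit over all 12 groups called 7, array weights 5, the batch code as a block 6, the rank product 7, median centring 1, and the replicate block and inclusion of the 3 arrays 0. For dexamethasone plus As against saline (1 called), the counts were 5 with 1 fit over all groups, 2 with the filter, 4 with the batch block, 2 with quantile normalization, 2 with the mean of a gene's probe sets, 6 with the rank product, and 0 with the replicate block and with the 3 arrays. For dexamethasone plus As against As (1 called), they were 6 with 1 fit, 3 with the filter, 3 with the mean of probe sets, 6 with the rank product, and 0 with the batch block, the replicate block, median centring and the 3 arrays. The pooled contrast (8 called) gave 5 with the filter, which in the injection fit was not passed by Ncr1, Eomes, Tbx21 and Prf1. It gave 3 with the 3 arrays, and 9, with Tbx21, under 1 fit over all groups and under the batch block. The rank product called 1 gene for diet where limma called 0. No other comparison changed.

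Leaving out 1 mouse at a time gave 0 to 4 calls for dexamethasone against saline (0 without saline mouse F or dexamethasone mouse E, 4 without saline mouse C, and 1, Nkg7, without saline mouse E with its thymocyte signal). It gave 0 to 4 for dexamethasone plus As against saline (0 without saline mouse F, dexamethasone plus As mouse E or F, and 4 without mouse D) and 0 to 4 against As (4 without mouse D). The replicate letters did not pair the mice: deviations of same-letter mice had a median correlation of -0.034 over 55 pairs, against 0.171 over 63 pairs of mice that share a batch code. The block by letter left 0 calls in all 3 and 7 in the pooled contrast. The cause of the other changes was not tested. The number of mice and the dimness of Ncr1, Eomes and Tbx21 limit these tests.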
